A study of Mus musculus with 3 samples.

Results

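Barcodes with inner root sheath transcripts were examined in single-cell RNA sequencing of P18 mouse dorsal skin, the age at which hair follicles enter their first regression. The data hold 3 libraries of epidermal and hair follicle cells freed with trypsin: 2 from control mice (*Vdr* flox/flox) and 1 labelled *Vdr* cKO (*Vdr* flox/flox; Krt14cre), each made from the pooled skin of 3 male mice. All mice carried the floxed *Vdr* alleles, and in the cKO mice the Krt14 promoter drives Cre in keratinocytes of the basal layer and outer root sheath and in their descendants, so that exon 3 is deleted. In all, 5760 barcodes were kept, those in which 200 genes or more were detected and mitochondrial counts did not exceed 20%. A kept barcode was a member when the counts of Tchh, Krt71, Krt25, Krt27, Krt28 and Krt73 together reached 500 CPM, that is, 500 counts in each 1000000 counts of the barcode, and 188 barcodes did so, of which 183 lay in the library labelled *Vdr* cKO. These 6 genes are called the rule genes here. The members were chosen by the measured counts of the rule genes, so these counts are given below as a description, and with 1 *Vdr* cKO library and with cells that are not replicates no test was made. The library is named by its label because *Vdr* was not lower in it, with 80.8 CPM over its kept barcodes against 40.7 and 35.9 CPM in control 1 and control 2. Counts were made for whole genes, so transcripts that lack exon 3 and transcripts that hold it cannot be told apart.

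The inner root sheath is the rigid sleeve of keratinocytes that moulds the growing hair shaft and is shed in the upper follicle. Its cells fill with trichohyalin, the product of Tchh, a granule protein of the S100 fused-type family that is modified by peptidylarginine deiminases, cross-linked by transglutaminases and binds the keratin filaments together. Those filaments pair a type I keratin (Krt25, Krt27 or Krt28) with a type II keratin (Krt71 or Krt73), and the transcription factor Gata3 is needed for the sheath to form. The hair-producing part of the follicle is lost in catagen, the regression phase, and the sheath is lost with it.

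The rule genes lie at 3 places in the genome (RefSeq, GRCm38.p6). Krt25 (chr11:99315516-99322951), Krt27 (chr11:99345565-99351118) and Krt28 (chr11:99365007-99374903) are neighbours in the type I keratin cluster. Krt71 (chr15:101733949-101743097) and Krt73 (chr15:101793304-101802360) lie in the type II cluster, and Tchh (chr3:93442330-93449077) lies in the epidermal differentiation complex. Because their counts were found together in some barcodes, the 250 bases before the start of 3 of them, 1 from each place, are printed 5′ to 3′, with matches to GATAA (the core that GATA factors bind) and to TATAAA (the TATA box) in capitals.
Tchh (chr3:93442080-93442329, plus strand): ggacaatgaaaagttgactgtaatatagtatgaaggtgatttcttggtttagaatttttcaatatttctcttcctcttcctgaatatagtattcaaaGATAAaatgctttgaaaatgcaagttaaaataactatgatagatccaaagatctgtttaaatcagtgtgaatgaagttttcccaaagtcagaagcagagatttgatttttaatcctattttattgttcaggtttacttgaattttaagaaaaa
Krt71 (chr15:101743098-101743347, minus strand): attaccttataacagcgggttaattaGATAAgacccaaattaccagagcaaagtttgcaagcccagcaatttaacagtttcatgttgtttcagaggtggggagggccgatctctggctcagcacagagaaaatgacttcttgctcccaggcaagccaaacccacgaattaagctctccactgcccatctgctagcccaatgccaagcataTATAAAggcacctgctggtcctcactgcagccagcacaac
Krt27 (chr11:99351119-99351368, minus strand): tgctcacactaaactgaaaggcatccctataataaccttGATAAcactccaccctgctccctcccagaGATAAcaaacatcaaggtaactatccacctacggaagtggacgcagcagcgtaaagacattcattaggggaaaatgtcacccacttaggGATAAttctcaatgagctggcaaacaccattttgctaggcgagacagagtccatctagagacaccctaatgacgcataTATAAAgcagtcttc
In this window, GATAA or its reverse complement TTATC was found in 6 of the 6 rule gene promoters and in 22.6% of 32851 RefSeq promoters. CTTTGA, a core of Lef1 and Tcf sites searched on both strands, was found in 2 of 6 and in 13.8%. TATAAA on the gene's strand was found in 5 of 6, the exception being Tchh, and in 7.59% of all promoters. The GATAA matches began between 93 and 224 bases before the start, and in the 5 keratin genes TATAAA began 15 to 40 bases before it. A match describes the letters and is no evidence of binding.

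Members were 1 of 1480 kept barcodes in control 1 (0.0676%; exact binomial 95% interval 0.00171 to 0.376), 4 of 1658 in control 2 (0.241%; 0.0658 to 0.617) and 183 of 2622 in the library labelled *Vdr* cKO (6.98%; 6.03 to 8.02). The intervals cover counting error only. Over all kept barcodes the summed level of the rule genes was 0.585 CPM for control 1 and 2.54 CPM for control 2, whereas it reached 235 CPM for the library labelled *Vdr* cKO. Total counts over kept barcodes were 18802408, 28690129 and 30954897, so depth was of the same order in the 3 libraries. Only Tchh was listed among the rule genes of control 1, Tchh, Krt27 and Krt28 in control 2, and all 6 in the library labelled *Vdr* cKO. With each barcode thinned to 1000 counts and shallower ones left out (14, 61 and 60 barcodes), the members numbered 2 of 1466, 1 of 1597 and 173 of 2562. Mouse pool, library and genotype cannot be told apart in this contrast.

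**Figure D1:**
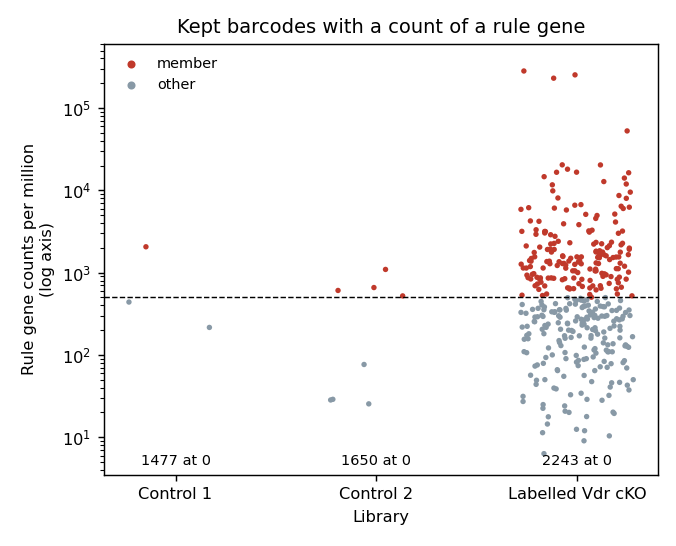
Rule gene CPM of the barcode total (log axis) for every kept barcode with a rule gene count, by library, with members in red, other barcodes in grey, the dashed line at 500 CPM and the number of barcodes at 0 below. The controls have 3 and 8 such barcodes and the library labelled *Vdr* cKO has 379, with 3 members far above the rest.

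The control members carried little of the sheath's gene set. The member of control 1 had 9 Tchh counts of 4365. In control 2 a pair of barcodes had 48 and 13 Krt28 counts, of 43864 and 19725, with 177 and 100 Krt14 counts. The other 2 members of control 2 had 1 Tchh count of 1646 and 4 Krt27 counts of 7667. All 5 control members therefore held a single rule gene. Krt71, Krt25 and Krt73 had no count in any control.

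In the library labelled *Vdr* cKO most members held few rule gene counts as well. A member had from 1 to 1983 of them, with a median of 5, and a median of 3144 counts in all (255 to 78028). The other kept barcodes of that library had a median of 4170 counts. The median mitochondrial share of counts was 2.37% in members, 1.70% in the others and 3.86% in the 3 highest members. By number of rule genes, 144 members held 1, 26 held 2 and 13 held 3 or more. The 144 had a median of 4 rule gene counts and the 13 had a median of 102. The 13 barcodes held 5013 of the library's 7277 rule gene counts in kept barcodes (68.9%), and its 3 highest barcodes alone held 3945 (54.2%). Members ranged from 503 to 281876 CPM of the rule genes, with a median of 1526 CPM. Just inside the limit were 503, 523 and 527 CPM, from 1, 1 and 2 counts. Just outside were 498, 496 and 488 CPM, from 3, 2 and 2 counts. A barcode under 2000 counts, as were 38 members, passes the limit on 1 count.

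**Figure D2:**
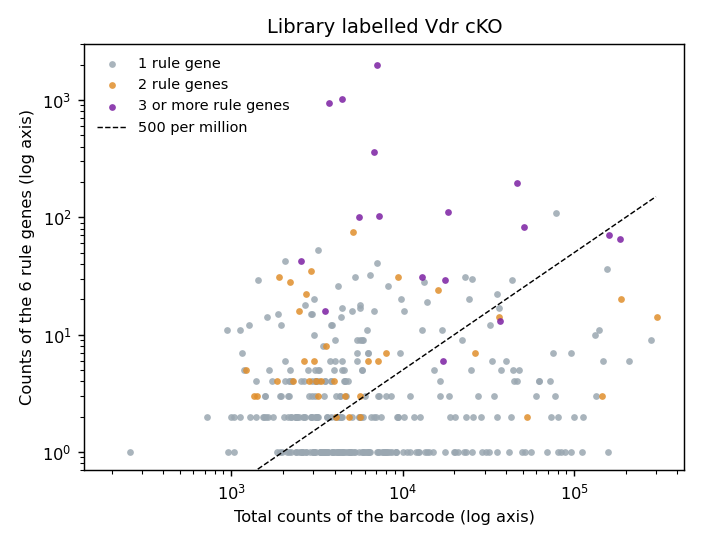
Counts of the 6 rule genes against total counts (both log axes) for the 379 kept barcodes of the library labelled *Vdr* cKO with a rule gene count, coloured by how many rule genes they held, with the dashed line at 500 CPM. Barcodes with 1 rule gene crowd at 1 to 10 counts on both sides of the line, while most of those with 3 or more stand above 20 counts.

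RNA freed from broken cells gives counts in barcodes of cells that do not use a gene, so antigen-presenting barcodes (Cd74, H2-Ab1, H2-Aa and H2-Eb1 together at 5000 CPM or more) served as a reference. In the library labelled *Vdr* cKO, 29 kept barcodes met that limit, with a median of 5084 counts. A rule gene count was present in 7 of them (24.1%; 10.3 to 43.5), against 379 of all 2622 kept barcodes (14.5%). Of the 29, 4 were members (13.8%; 3.89 to 31.7), with 2 rule gene counts each, of Tchh in 3 and of Krt27 in 1. Cd74 had 16, 0, 1 and 0 counts in these 4, of 2387, 2370, 3071 and 1284 counts in all. Most of the 4 thus passed the antigen-presenting limit through the H2 genes. Whether they were antigen-presenting cells was not tested. The share of members over all kept barcodes, 6.98%, lay within that interval, so the share alone is not read as expression. The 29 were few, and some shared barcode bases with each other in the way described below. Their 2 counts each lay below the median of 5 over all members, and the highest member with 1 rule gene had 42 Tchh counts of 2058 (20408 CPM). None of the 29 held 2 or more rule genes. Members with 2 or more were 39 of all 2622 kept barcodes (1.49%), so none among 29 is not read as a difference. The rule genes stood at 35.1 CPM in these barcodes, the 4 members included, and at 235 CPM over all kept barcodes. Over non-members, which the rule keeps below its limit, the rule genes stood at 21.0 CPM. Without the 3 highest barcodes they stood at 22.4 to 539 CPM in the 9 clusters described below. In members with 1 rule gene they stood at 1767 CPM and in those with 3 or more at 26803 CPM, levels that the rule itself sets high. Tchh made up 66.7% of the rule gene counts in the reference barcodes, 60.4% in non-members, 74.9% in members with 1 rule gene and 86.9% in the 3 highest barcodes, but 31.6% in the other members with 3 or more rule genes. The 13 barcodes with 3 or more rule genes were 0.496% of the kept barcodes (0.264 to 0.846), and no control barcode was of that kind.

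Tchh was the rule gene found in most members. It stood at 4803 CPM (4670 to 4939, exact Poisson interval) in members of the library labelled *Vdr* cKO and at 12.7 CPM in the others, and 126 of 183 members (68.9%) had a count. Of its counts in kept barcodes, 64.6% came from the 3 highest barcodes, and without these its level in members was 1481 CPM. Tchh was the single rule gene of 93 members.

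The type II keratins were found in fewer members. Krt71 stood at 502 CPM in members and 2.00 CPM in the others, with a count in 35 members (19.1%) and in 1.03% of the others. Without the 3 highest barcodes its level was 289 CPM. Krt73 stood at 134 CPM against 0.668 CPM, with a count in 14 members (7.65%), and at 112 CPM without the 3 highest barcodes. Both genes thus lost less of their level than Tchh when those barcodes were left out.

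Among the type I keratins, Krt27 was found in 38 members (20.8%), Krt25 in 24 (13.1%) and Krt28 in 13 (7.10%). Krt25 stood at 467 CPM in members and 1.00 CPM in the others, and Krt27 at 400 CPM against 2.00 CPM. Krt28 stood at 176 CPM against 2.64 CPM and had no count in the 3 highest barcodes. A type I and a type II keratin, the pair a filament needs, were found together in 13 members, of which 12 held 3 or more rule genes, and 9 of the 13 also had Tchh. Of the other kept barcodes, 5 held both types.

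The 13 barcodes with 3 or more rule genes may not be 13 independent cells. Barcodes were 12 bases long, and many in these libraries shared bases 3 to 12 or a run of 11 bases at a shift of 1 base with another barcode, as 1449 of 2622 kept barcodes did in the library labelled *Vdr* cKO (55.3%), 382 in control 1 (25.8%) and 774 in control 2 (46.7%). The likeness of counts depended on the kind of link. Without the rule genes, the median cosine was 0.781 over the 472 pairs at a shift of 1 base and 0.326 over the 348 pairs that shared bases 3 to 12, against 0.306 over all pairs. Among linked pairs with 1 member it was 0.709 over 18 pairs of the former kind and 0.314 over 28 of the latter. By both kinds of link the 13 barcodes fell into 8 groups, 4 of them of more than 1 barcode, printed here with the shared bases in capitals.
Group 1, first: tcCTGGGTTCCA
Group 1, second: gCTGGGTTCCAt
Group 1, last: agCTGGGTTCCA
Group 4, first: GGGAGGACGACa
Group 4, second: aGGGAGGACGAC
Group 7, first: aGTATGGACACC
Group 7, second: GTATGGACACCc
Group 8, first: agCACTTCATAG
Group 8, second: tcCACTTCATAG
Groups 2, 3, 5 and 6 had 1 barcode each. In the library labelled *Vdr* cKO, 66 members (36.1%) were linked to another kept barcode, and the 2 Krt28-bearing barcodes of control 2 were linked to each other. With the counts of linked barcodes summed before the limits and the rule were applied, members were 1 of 1343, 2 of 1261 and 156 of 1813 (8.60%; 7.35 to 9.99), and 8 of the 156 held 3 or more rule genes. With links at a shift of 1 base alone, the 13 barcodes fell into 10 groups, since the first barcode of group 1 and the pair of group 8 were joined only through bases 3 to 12, and members were 167 of 2151 (7.76%; 6.67 to 8.98).

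Group 1 was the densest in rule gene counts. In its 3 barcodes the rule genes made up 28.2%, 25.3% and 23.0% of 7035, 3705 and 4448 counts. Tchh had 1742, 797 and 891 counts, Krt71 116, 59 and 48, Krt25 91, 33 and 29, Krt27 26, 41 and 48, and Krt73 8, 7 and 9. Krt28 had none. The epidermal keratin Krt10 had only 31, 23 and 20 counts there, Lor (loricrin, of the granular layer) 2, 7 and 0, and Krt15 (of basal and bulge keratinocytes) 0, 0 and 1. The first and second barcodes had a cosine of 0.471 and the second and last of 0.662, each above the highest with any kept barcode outside the group. The first and last had 0.257, against a highest value of 0.355 for the first with other barcodes.

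The other groups differed from group 1 and from each other in which rule genes they held. Group 2 had 157 Tchh, 82 Krt71, 45 Krt25, 73 Krt27 and 1 Krt73 counts of 6792. Group 3 had 92 Tchh counts of 5535, with 4 each of Krt25 and Krt27. In group 4 Krt28 led instead, with 16 and 40 counts, beside 13 and 12 of Krt73, 5 and 36 of Krt27, 5 and 10 of Krt71 and only 2 and 4 of Tchh.

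Groups 5 and 7 had sheath keratins without Tchh. Group 5 had 45 Krt25, 26 Krt71, 25 Krt73 and 15 Krt28 counts of 18450, beside 785 counts of Krt10. Group 7 had 148 and 25 Krt25 counts, 31 and 1 of Krt73 and 17 and 5 of Krt28, with none of Krt71. It also had 120 and 25 counts of Krt14 and 707 and 207 of Krt10 in its 46112 and 12895 counts. Group 6 had 10 Krt28, 5 Krt71 and 1 Tchh count of 3512. Group 8 was deep, at 17607 and 51168 counts, and its 25 and 56 Tchh counts stood beside 604 and 1513 of Krt10 and 285 and 1064 of Krt15. Krt28 was thus present in groups 4, 5, 6 and 7 and without a count in groups 1, 2, 3 and 8. A further linked group of 4 barcodes, with 17232 to 184137 counts, held 3 to 6 rule genes but lay below the limit, at 348 to 447 CPM.

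**Figure D3:**
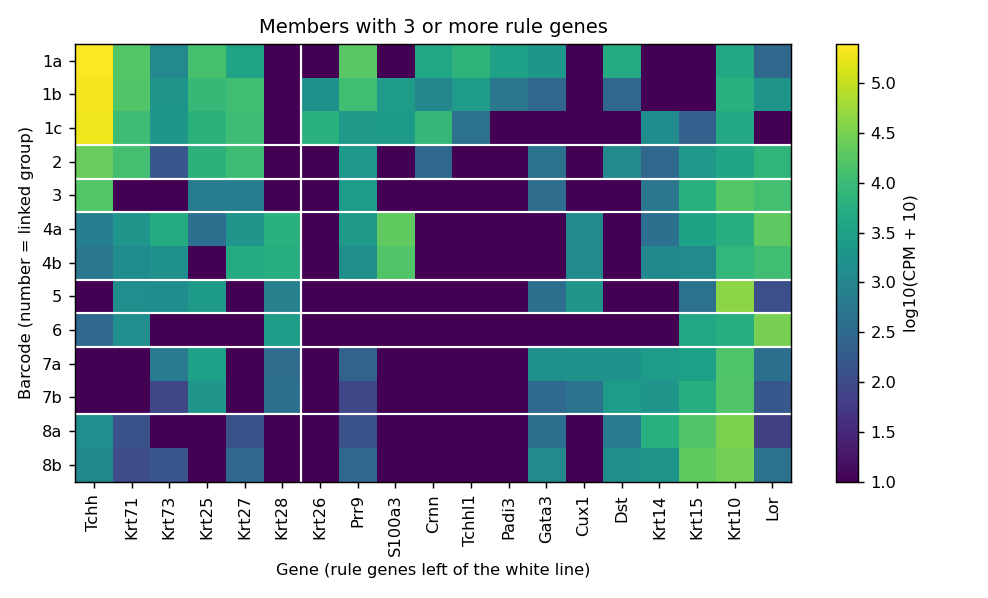
Level of the rule genes (left of the white vertical line) and of 13 other genes in the 13 members with 3 or more rule genes, as log10(CPM + 10), with linked barcodes sharing a number. Tchh is brightest in group 1, S100a3 in group 4 and Krt10 in groups 5 and 8.

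Genes outside the rule were compared between the 183 members and the other 2439 kept barcodes of the library labelled *Vdr* cKO, with counts summed in each set and 1 CPM added before the log2 ratio. Of 4150 genes with at least 50 CPM in either set, 480 were over 2-fold higher in members (11.6%) and 415 over 2-fold lower (10%), or 21.6% in either direction, with a median log2 ratio of 0.03. With DESeq2 size factors the median moved to 0.19, and 644 genes were higher and 334 lower. With each gene counted once per barcode, 75 were higher and 308 lower, and 89 of the 895 calls were shared. As a mean of each barcode's CPM, 371 of the 895 were shared. With stricter limits on detected genes and mitochondrial counts (under 5%), which left 147 members of 2140 barcodes (6.87%), 557 were higher and 464 lower, and 729 of the 895 were shared. A gene over 2-fold higher had its counts in a median of 9 member barcodes, with 44.0% of them from 1 barcode. The gene lists below are read against these shares. A gene at 50 CPM or more in 1 set alone enters the count through the set in which it is high, which favours a call.

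Of the 7 sheath genes outside the rule, Krt26 and Cux1 were over 2-fold higher in members, each through a few dense barcodes, and Krt26 lay below the level tested. Krt26, the remaining type I sheath keratin, stood at 33.1 CPM in members and 0.234 CPM in the others, and its 34 counts all lay in group 1, with 6 in the second and 28 in the last barcode, so that it had no count in members without that group. Krt72 had no count in members, and Krt74 was not listed. Gata3 stood at 838 CPM in members and 741 CPM in the others. Prdm1, a repressor found in differentiating sheath and sebaceous cells, stood at 52.6 against 51.7 CPM, and Foxc1 at 40.0 against 57.8 CPM. Cux1, a transcription factor of the inner root sheath, was over 2-fold higher, at 142 against 48.7 CPM, and 138 of its 146 counts lay in groups 4, 5 and 7. With each gene counted once per barcode its log2 ratio was -0.20. Of the 4 genes tested, 1 was thus over 2-fold higher, against 11.6% of all genes. That gene, Cux1, passed the 50 CPM level only through members, so the count is not read as a result about the list. The list's median log2 ratio was 0.10, or 0.85 with genes at 0 in a set put at their bound of 3 counts.

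Among the enzymes and relatives of trichohyalin, the members' excess lay largely in group 1. Padi3, the peptidylarginine deiminase of the hair follicle, had 30 counts in members (29.2 against 0.869 CPM), of which 23 and 2 were in the first and second barcode of group 1. The transglutaminases Tgm1, Tgm3 and Tgm5 stood at 68.2, 25.3 and 34.1 CPM in members against 78.7, 20.1 and 29.2 CPM. Tchhl1, the trichohyalin-like gene, had 50, 10 and 2 counts in group 1 and 71 over all members, and stood at 69.2 against 1.24 CPM. Crnn (cornulin) had 29, 4 and 37 counts in group 1 of 72, and stood at 70.2 against 0.568 CPM. Without the 3 highest barcodes Tchhl1 fell to 8.91 CPM and Crnn to 1.98 CPM. The epidermal members of the same family showed no such excess, with Flg2 at 1426 against 1348 CPM, Flg at 372 against 413 CPM and Hrnr over 2-fold lower, at 113 against 273 CPM, though not with each gene counted once per barcode (log2 ratio 0.019).

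Prr9, a small proline-rich gene of the epidermal differentiation complex, had a count in 11 of the 13 dense barcodes and in 6 of the 8 groups. Keratinocyte genes common in the whole library, such as Krt10 (13 of 13) and Lor (12 of 13), were found in as many or more. In group 1 it had 132, 41 and 10 counts, in groups 2 and 3 it had 15 each, and in group 4 it had 6 and 11. Over all members it stood at 316 CPM against 16.8 CPM, with a count in 13.1% of members and 2.79% of the others, and at 140 CPM without the 3 highest barcodes. S100a3, a calcium-binding protein of the hair cuticle, stood at 258 against 13.3 CPM and was centred on group 4, with 53 and 114 of its 265 counts. The cuticle of the sheath and that of the shaft lie against each other, and the 12 shaft keratins measured, of 13 in the list, summed to 175 CPM in members, 98.9 CPM in the others and 519 CPM in members with 3 or more rule genes, where each of the 5 found, led by Krt33a and Krt83, had counts in 2 of the 13 barcodes. Only Krt32 passed the level needed, at 55.6 against 32.5 CPM. Below that level, Krt33a stood at 43.9 against 9.56 CPM and Krt83, named after its values were seen, at 38.0 against 8.79 CPM, each with counts in 5 members.

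The 15 genes highest in members by ratio were Cetn4, Crnn, Ctse, Cd48, Crisp1, Tchhl1, Skap1, Gnmt, Dusp2, S100a3, Gm44950, Ung, Prr9, Tmem184c and Mtmr4. All 15 stood at 16.8 CPM or less in the others and passed the 50 CPM level only through members. Their place over 2-fold was thus fixed by that filter. They had counts in a median of 5 member barcodes, and in the median gene 70.4% of these were from 1 barcode. All 53 counts of Gnmt, a liver methyltransferase, came from 1 barcode, and 94.2% of those of the protease Ctse and 92.5% of those of the blood cell receptor Cd48 did. Only S100a3 and Prr9 were found in 10 or more member barcodes, in 15 and 24. When a member had to hold at least 2 rule genes, Cetn4, Cd48, Crisp1, Skap1 and Gnmt turned to lower in members. The 10 lowest were Slu7, Cntrl, Hexim1, Chchd1, Eps15, Chchd3, Apmap, Sart1, Asf1a and Cc2d1a, between 52.99 and 100.1 CPM in the others and between 2.92 and 13.7 CPM in members. Slu7 and Sart1 act in splicing, Chchd1 and Chchd3 in mitochondria, Cntrl at centrioles and Eps15 in endocytosis. Each of the 10 was found in 3 to 6 members and in 6.77% to 13.9% of the others. These 10 passed the 50 CPM level only through the others, so the filter fixed their place as well.

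Outside the dense barcodes, members had the keratinocyte genes of the library they came from. Krt10 stood at 18104 CPM in members and 24374 CPM in the others, Lor at 12352 against 11916 CPM, Krt15 at 9003 against 7601 CPM and Krt14 at 2204 against 2001 CPM. In members with 1 rule gene Lor stood at 15617 CPM and Krt10 at 17233 CPM. In those with 3 or more rule genes they stood at 2192 and 21948.5 CPM, and in the 3 barcodes of group 1 at 593 and 4872 CPM. Lor differed between the dense barcodes, and the deep ones weigh most in this level. It had 51 counts of 6792 in group 2 and 67 of 5535 in group 3. In group 4 it had 50 of 2533 and 79 of 7237, and in group 6 108 of 3512. It had 2 of 18450 in group 5, 18 of 46112 and 2 of 12895 in group 7, and 1 of 17607 and 23 of 51168 in group 8. Of the 6 spinous genes none was over 2-fold apart, with a median log2 ratio of -0.42. Of 8 basal and outer root sheath genes tested none was over 2-fold apart (median over 10 genes 0.20). Of 10 granular and cornified genes tested 2 were over 2-fold lower, against 10% of all genes. These were Ivl (involucrin), at 231 against 557 CPM, and Hrnr (median over 11 genes 0.05).

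The genes by which the study describes epithelial strand cells (Gata3, Dst and Krt14) were found in members about as often as in the others. With each barcode thinned to 1000 counts, which left out 5 members and 55 others, Gata3 was found in 34.3% of members (27.3 to 41.7) and 36.5% of the others, Dst in 34.8% (27.9 to 42.3) and 38.1%, and Krt14 in 61.2% (53.7 to 68.4) and 58.8%. Before thinning the shares were 51.4% and 62.9%, 51.4% and 59.1%, and 73.8% and 76.8%. Dst, a linker of keratin filaments to hemidesmosomes, stood at 1286 against 828 CPM. *Vdr* stood at 54.6 CPM in members, from 56 counts in 15 barcodes, and at 81.7 CPM in the others. After thinning *Vdr* was found in 3.93% of members (1.60 to 7.93) and 4.11% of the others. In the dense barcodes *Vdr* had 12 counts in the second barcode of group 8, 1 in group 3 and 1 in group 7, and none in groups 1, 2, 4, 5 and 6. Hr, the hairless corepressor that acts with *Vdr*, stood at 253 against 177 CPM.

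**Figure D4:**
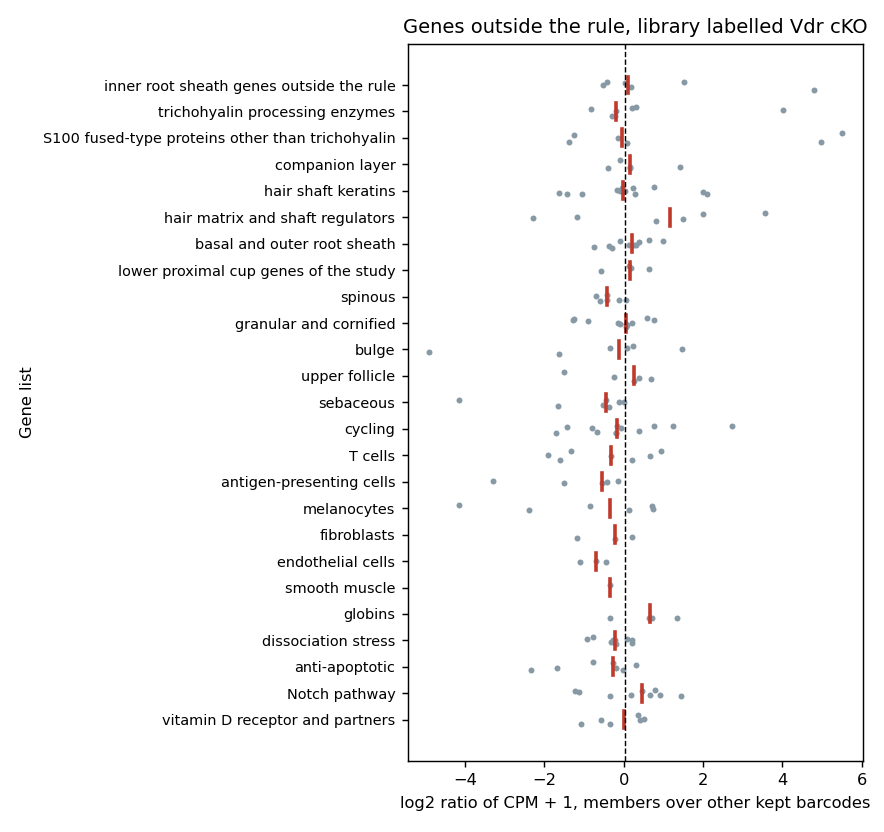
Log2 ratio of CPM + 1, members over the other kept barcodes of the library labelled *Vdr* cKO, for the genes with a count (grey points) of each list shown, with the list median in red and the median of all 4150 genes tested as a dashed line. Most list medians sit near the dashed line. That of matrix and shaft regulators is at 1.15, over 6 genes that went both ways. Krt26, Padi3, Crnn and Tchhl1 are the points above 4.

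The summed level of genes of other follicle parts in members was near that of the library's other barcodes for the bulge list (9253 against 7855 CPM, mostly Krt15), the upper follicle list (5092 against 4504 CPM) and the companion layer list (1984 against 2373 CPM). The other bulge genes went different ways. Sox9 stood at 198 against 187 CPM and Lhx2 at 16.6 against 21.2 CPM. Nfatc1, a transcription factor of bulge stem cells, had no count in members, which allows up to 2.92 CPM, against 29.2 CPM in the others. Cd34 stood at 0.975 against 5.08 CPM and Lgr5 at 35.1 against 11.96 CPM, both named after their values were seen. Among upper follicle genes Cst6, a cystatin, stood at 3807 against 3207 CPM, Krt79 at 643 against 769 CPM and Defb6, a defensin, at 574 against 440 CPM. Of the companion layer genes, whose cells flank the sheath, Krt75 was over 2-fold higher, at 123 against 45.4 CPM, Krt17 stood at 1605 against 2098 CPM and Krt6a at 182 against 163 CPM. Of Krt75's 126 counts, 43 and 24 were in 2 members with 1 rule gene and 39 in the first barcode of group 7. Among matrix and shaft regulators (median log2 ratio 1.15 over 6 genes with a count) Dlx3 stood at 78.0 against 18.8 CPM. It alone passed the 50 CPM level, and only through its level in members, so its place over 2-fold was fixed by that filter. Of its 80 counts, 29, 12 and 10 were in 3 members with 1 rule gene, and 6 and 10 in group 1, and it stood at 63.3 CPM without the 3 highest barcodes. Lef1, named after its values were seen, had 24 counts in members, all in group 5. Bmp4 stood at 34.1 against 11.4 CPM, with a count in only 2 members (1.09%) and in 2.62% of the others. Msx2, also named after its values were seen, stood at 21.4 against 11.8 CPM and Hoxc13 at 1.95 against 13.4 CPM. Foxn1 stood at 8.77 against 21.2 CPM, a direction that turned as a mean of each barcode's CPM (log2 ratio 0.50), and that of Bmp4 turned with each gene counted once per barcode (-0.76). Of the sebaceous genes Scd1 was over 2-fold lower, at 252 against 795 CPM, but not with each gene counted once per barcode (log2 ratio 0.29). Of the upper follicle genes Plet1 was over 2-fold lower, at 19.5 against 56.9 CPM, a gene also named after its values were seen. Of the 12 cycling genes 5 were tested, with 1 over 2-fold higher and 1 lower, against 11.6% and 10% of all genes. Mki67 was higher, at 124 against 52.2 CPM, and Top2a lower, at 33.1 against 90.3 CPM. No common direction was thus seen among the tested genes, and Mki67 lost its excess in members with at least 10 rule gene counts (log2 ratio -0.092).

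Cell death genes are of interest because follicle regression proceeds through apoptosis. Of 3 anti-apoptotic genes tested, 1 was over 2-fold lower, against 10% of all genes. This was Xiap, an inhibitor of apoptosis, at 17.5 against 59.0 CPM, which passed the 50 CPM level only through the others. The other two were Mcl1, at 156 against 127 CPM, and Bcl2l1, at 55.6 against 56.2 CPM. Of genes that promote apoptosis, Bad stood at 96.5 against 55.5 CPM and Bax at 28.3 against 47.5 CPM. Of 9 Notch pathway genes 4 were tested and none was over 2-fold apart. Of 10 dissociation stress genes none was over 2-fold apart, with a median of -0.22.

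Markers of other cell types were also summed. Summed levels in members and in the others were 65.3 and 82.1 CPM for 7 T cell genes, 181 and 331 CPM for 6 antigen-presenting genes (with Cd207 at 0 in members and Lyz2 at 0 in both) and 32.2 and 57.4 CPM for 6 melanocyte genes (with Pmel at 0). Cd74 made most of the antigen-presenting difference, at 53.6 against 154 CPM, and turned with each gene counted once per barcode (log2 ratio 0.45). H2-Ab1 had a count in 10.4% of members and 6.27% of the others, H2-Aa in 6.56% and 4.47%, and H2-Eb1 in 5.46% and 3.65%. Fibroblast genes summed to 2.92 and 3.81 CPM, and endothelial and smooth muscle genes had no count in members. Globin genes summed to 59.5 and 62.6 CPM. Kept barcodes shared by sequence with another library numbered 27, 28 and 20, of which 0, 0 and 4 were members. In the library labelled *Vdr* cKO these were 2.19% of members, against 0.763% of all kept barcodes.

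Members did not form a cluster of their own. With the rule genes left out of the variable genes, Seurat at the study's resolution gave 9 clusters over the 3 libraries, and members of the library labelled *Vdr* cKO lay in 8 of them. Cluster 2 held 92 of the 183 members (50.3%) and 25.1% of the others, so that 13.0% of its 705 barcodes from this library were members (10.7 to 15.8). In clusters 0, 1 and 3 the share was 6.82%, 6.77% and 4.89%. The rule genes stood at 228, 3323, 723 and 111 CPM in clusters 0, 1, 2 and 3, or at 539 CPM in cluster 1 and 379 CPM in cluster 2 without the 3 highest barcodes, and at 22.4 to 38.3 CPM in clusters 4 to 8, so that the level differed between clusters as well as the share. Cluster 2 was led within this library by S100a3 (107 against 13.2 CPM in other clusters), Reps1 (64.3 against 15.02 CPM) and Wdr53 (60.3 against 15.4 CPM), and held only 40 and 43 control barcodes. These leading genes passed the 50 CPM level only through cluster 2, so the filter fixed their place over 2-fold. Whether cluster 2 marks this library or a cell type was not tested. Lor and Krt10 stood at 12289 and 17633 CPM in cluster 2. Of the 92, 75 held 1 rule gene. The 13 dense barcodes were split, with 4 in cluster 1, 4 in cluster 2 and 5 in cluster 3, and 2 barcodes of group 1 lay in cluster 1 and the other in cluster 2. Cluster 5, the deepest at a median of 29569 counts, had 3 members of 252. A rule in CPM needs fewer rule gene counts in a shallow barcode. Cluster 1 was the shallowest, at a median of 1861 counts, and cluster 2 had a median of 3389. The part of depth in these shares was not tested beyond the thinned counts above.

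**Figure D5:**
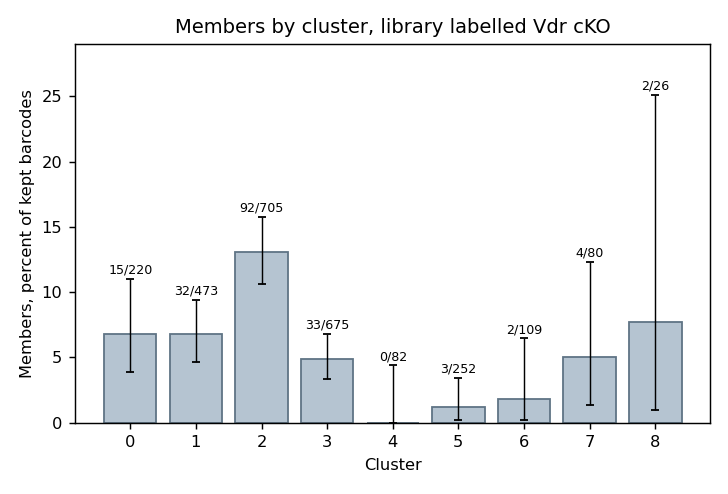
Members as a percentage of the kept barcodes of each cluster in the library labelled *Vdr* cKO, with exact binomial 95% intervals as bars and the numbers above. Cluster 2 is highest at 13.0%, and cluster 4 has no member among 82 barcodes.

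The name inner root sheath rests on the rule genes, which chose the barcodes and so cannot check it. Among sheath genes outside the rule, the median log2 ratio was 0.10 in all members and -0.056 in those with 3 or more rule genes. The genes went different ways, so this median does not check the name either. In members with 3 or more rule genes Krt26 stood at 182 against 0.234 CPM and Cux1 at 738 against 48.7 CPM. Foxc1 stood at 16.0 against 57.8 CPM there, and Prdm1 had no count against 51.7 CPM. The members are therefore called by the rule that chose them.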

How the data were processed

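The authors' deposited matrices hold raw counts per gene and barcode for each library, not normalized. The submitters' processing notes name mm10, the study's methods name Seurat for alignment, and a read aligner and the rule for counting molecules are not given in the sources used here, so counts may include PCR copies. The members and gene lists were chosen with earlier results of these data known. Counts were summed over barcodes and divided by their total to give CPM (Python 3.11.15, numpy 2.4.6, scipy 1.17.1, pandas 2.3.3, matplotlib 3.10.9), and genes with at least 50 CPM were counted past 2-fold. Clustering used Seurat 5.3.0 in R 4.3.3 (2000 variable genes, 10 components, resolution 0.5). Alternatives used edgeR 4.0.16 TMM and DESeq2 1.42.0 size factors. Genes named are the rule genes, the sheath list, genes the study names for these cells, the 15 highest and 10 lowest ratios, up to 4 genes of each other list by level and 3 leading genes of the main cluster. Details of genes in the dense barcodes were added after seeing the data. No doublet caller was run. RefSeq symbols matched 87.3% of 19927 listed genes. Results for 1 gene are not reported here.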

Additional observations from a re-analysis of the deposited data

Results flagged for a closer look

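Barcodes outside the limits, which no comparison used, had a higher rule gene level in the library labelled *Vdr* cKO than in the controls. The 160 such barcodes stood at 2412 CPM, against 0 and 3.63 CPM in the 1308 and 802 of control 1 and control 2. Of their 304 rule gene counts, 291 lay in 1 barcode with 4617 counts and 26.1% mitochondrial counts, and Tchh made up 90.5% of the 304. In all, 6 of the 160 reached 500 CPM.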

How the results depend on the processing

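With 1 *Vdr* cKO library, whose 183 members are not replicates, the intervals cover counting error only. The share of members in the library labelled *Vdr* cKO (6.98%) became 9.76% at a limit of 250 CPM, 4.996% at 1000, 1.49% with at least 2 rule genes, 2.33% with at least 10 rule gene counts and 8.60% with linked barcodes summed (7.76% with links at a shift of 1 base alone). These last settings, the settings without the 3 highest barcodes and those by number of rule genes were chosen after seeing the data. In the controls it became 0% and 0% with at least 2 rule genes and 0% in control 1 with at least 10 counts, and in control 2 it became 0.0603% at 1000 CPM and 0.0626% after thinning. The log2 ratio to the mean control share, 5.498, ranged from 4.85 to 6.69 without control replicate 1 or 2. Of 895 genes over 2-fold apart, the count became 329 at 250 CPM, 2251 with at least 2 rule genes, 1578 with at least 10 rule gene counts, 383 with each gene counted once per barcode (75 higher and 308 lower), 3043 at 10 CPM (1204 higher and 1839 lower), 5963 without a filter (1697 higher and 4266 lower), 1789 at 1.5-fold and 2656 for members with 3 or more rule genes. The cause was not tested. The median log2 ratio of sheath genes outside the rule, 0.10, became -0.038 with at least 2 rule genes, -0.065 as a mean of each barcode's CPM, -0.13 without the 3 highest barcodes, -0.056 for members with 3 or more rule genes and -0.36 for those with 1. The share of members in their main cluster, 50.3%, became 77.6% at resolution 0.3, where 51.1% of the others lay in it.

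Of 58 named genes over 2-fold apart, 42 kept their sign in all 15 alternatives run on them. With at least 2 rule genes the log2 ratio turned for Cetn4 (-1.79), Cd48 (-1.60), Crisp1 (-1.94), Skap1 (-1.84), Gnmt (-2.09) and Krt84 (0.29). With at least 10 rule gene counts it turned for Bmp4 (-3.75), Mki67 (-0.092) and Hbb-bt (-0.30), and at 1000 CPM for Bmp4 (-3.75). As a mean of each barcode's CPM it turned for Foxn1 (0.50). With each gene counted once per barcode it turned for Cux1 (-0.20), Hrnr (0.019), Krt84 (0.68), Bmp4 (-0.76), Scd1 (0.29), Cd3g (0.17) and Cd74 (0.45). Without the 3 highest barcodes it turned for Krt26 (-0.30). No paired analysis was possible because there is 1 *Vdr* cKO library and no test was made.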
